A study of Mus musculus with 8 samples.

Results

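The AP-1 and immediate early genes described here are Jun, Junb, Jund, Fos, Fosl1, Fosl2, Atf3, Egr1, Ier2 and Ier3, 10 of the 54532 genes in the count table. They were taken by symbol from a given list, and each matched 1 gene identifier. That list was drawn up with earlier results of these data known. Expression was measured by 3′ mRNA sequencing in 8 bulk libraries of mouse intestinal organoids, 4 from control cultures and 4 from cultures treated with RANKL, the ligand of the receptor RANK. Organoids are epithelial structures grown from intestinal crypts in a gel with EGF, NOGGIN and R-spondin, so they hold epithelium without stroma, and EGF was in the medium of both groups per the study's culture methods. The study kept its mouse lines on a C57BL/6J background. The dose of RANKL and how long it was given before these libraries were made are not given in the sources used here. The question was how these genes differed between organoids with and without RANK stimulation.

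AP-1 is a dimer of basic leucine zipper proteins: members of the Jun family pair with each other or with members of the Fos and ATF families and bind short DNA elements near their target genes. Many of these genes are immediate early genes, which are transcribed within minutes of a growth factor, cytokine or stress signal without new protein synthesis, often as a brief pulse. In other cells, RANK is known to signal through TRAF6 to NF-κB and to the JNK, p38 and ERK kinases, and FOS is required for the osteoclast lineage. Each library is a single sampling, so a brief pulse before it would not be seen.

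Between 583663 and 7807298 counts were assigned to genes in a library, with medians of 3911808 in control and 1613410 in RANKL libraries, and control replicate 4 and RANKL replicate 1 were the shallowest. Levels are given as CPM, the counts of a gene scaled to a fixed total, on TMM-scaled library totals, a scaling that sets the bulk of genes to the same level. The kit reads each transcript near its 3′ end, so a count does not scale with transcript length and levels of different genes can be set side by side as tags. The labels number the libraries within each group but do not say whether they came from separate cultures, so p-values measure the spread between these libraries, which may be technical. Of 6 M cell markers, the 5 with enough counts were all higher with RANKL, and their summed level was 50.0 to 59.1 CPM in control and 1828 to 2066 CPM in RANKL libraries, with Gp2 at 0 in every library. Of 6 stem and progenitor markers, 1 was higher and 4 were lower. Of 8 enterocyte markers, 1 was higher and 0 were lower, and they summed to 4145 to 4444 CPM in control and 4084 to 4541 CPM in RANKL libraries. Of 5 enteroendocrine markers 2 were higher and 0 lower, and of 5 Paneth markers 0 were higher and 1 lower. None of 5 goblet markers was called, nor was the 1 of 5 tuft markers with enough counts. Of the markers of cells outside the epithelium, 6 fibroblast markers summed to at most 3.44 CPM and 5 leukocyte markers to at most 9.69 CPM in any library. The part of these shifts in the results below was not tested. In bulk RNA, more cells of a type and more RNA per cell cannot be told apart.

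Junb, Ier3, Fosl2 and Jun rose in RANKL libraries and Jund fell, while Fos, Egr1 and Ier2 did not pass the test and Atf3 and Fosl1 had too few counts for it. That is 4 members higher and 1 lower of the 8 tested by edgeR's quasi-likelihood test, with p-values adjusted over all genes by the Benjamini-Hochberg method and called under 0.05. Over the whole table, 13.6% of the 9971 genes tested were called higher and 12.4% lower by the same rule. The libraries of the groups did not overlap for 3 of the 8 members on the higher side and 1 on the lower side. That separation was seen in 13.1% of all tested genes with RANKL higher and in 11.5% with RANKL lower. The median log2 fold change of the 8 members was 0.26, and that of all tested genes was 0.00017.

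**Figure D1:**
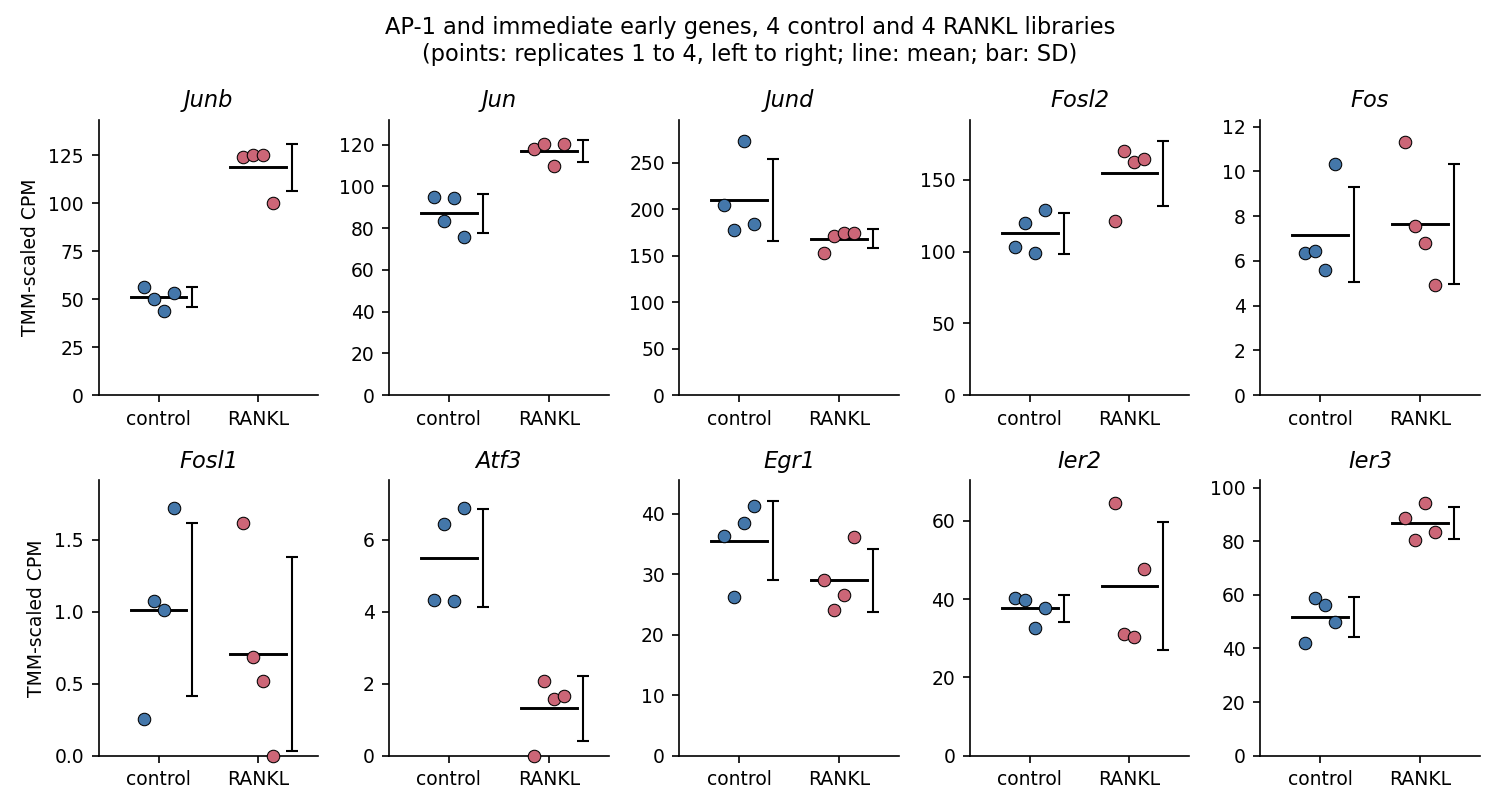
Level of each of the 10 genes in TMM-scaled CPM, on axes that start at 0, in 4 control (blue) and 4 RANKL (red) libraries, with the replicates in order from left to right, the mean as a line and the SD as a bar. Junb, Jun and Ier3 lay higher in all 4 RANKL libraries than in any control, and Jund and Atf3 lay lower.

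In control organoids the 10 genes spanned from 210 CPM for Jund to 1.02 CPM for Fosl1. Jund led with 210 ± 43.9 CPM (SD, n = 4), followed by Fosl2 with 113 ± 14.1 CPM and Jun with 87.1 ± 9.40 CPM. Ier3 and Junb came next with 51.7 ± 7.48 and 51.0 ± 5.30 CPM, and their libraries overlapped. Ier2 with 37.6 ± 3.44 CPM and Egr1 with 35.6 ± 6.53 CPM also overlapped, as did Fos with 7.18 ± 2.13 CPM and Atf3 with 5.49 ± 1.36 CPM. In RANKL libraries Jund, Fosl2, Junb and Jun stood at 168 ± 10.01, 155 ± 22.6, 119 ± 12.5 and 117 ± 5.14 CPM, and each of these overlapped the next in the order. Junb thus held the fifth place in control and the third in RANKL libraries, beside Jun. The 10 genes summed to between 570 and 650 CPM in control and between 712 and 733 CPM in RANKL libraries.

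The Jun family carries 3 genes that share a basic leucine zipper but differ in use: JUN is activated by JNK, JUNB is a weaker activator that can oppose JUN at some sites, and JUND is made broadly and has been linked to restraint of growth. On GRCm38, Junb lies on chromosome 8 from 84974484 to 84978718 on the minus strand, Jun on chromosome 4 from 95049034 to 95052222 on the minus strand, and Jund on chromosome 8 from 70698949 to 70700616 on the plus strand. The 250 bases before the RefSeq start of Junb (chr8:84978749-84978998, minus strand) and of Jun (chr4:95052223-95052472, minus strand), on GRCm38.p6, are shown because these genes changed by unlike amounts. Capitals mark the only matches to the searched motifs, TGACG in Junb and TGACATCA in Jun.
Junb: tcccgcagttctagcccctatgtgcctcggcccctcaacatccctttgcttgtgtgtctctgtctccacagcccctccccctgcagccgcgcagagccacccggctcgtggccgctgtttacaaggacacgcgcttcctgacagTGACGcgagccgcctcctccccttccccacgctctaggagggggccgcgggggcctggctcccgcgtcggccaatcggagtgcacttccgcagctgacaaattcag
Jun: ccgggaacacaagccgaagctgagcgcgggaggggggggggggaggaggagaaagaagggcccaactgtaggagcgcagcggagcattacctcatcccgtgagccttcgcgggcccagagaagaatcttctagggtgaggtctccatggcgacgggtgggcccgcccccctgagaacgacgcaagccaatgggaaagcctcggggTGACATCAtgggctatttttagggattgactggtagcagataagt

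The search covered 7 motifs on both strands of the 32851 RefSeq windows of this length, with overlapping matches counted. TGANTCA, the AP-1 site, was in 6.75% of windows and in none of the 7 members whose windows were searched. TGACGTCA, the cAMP response element, was in 1.55% of all windows and also in none of these 7. Its first 5 letters, TGACG, which every full element also holds, were in 17.8% of windows and in those of Junb, Fos and Atf3, the last in a window whose start lies 34706 bases inside the gene as GENCODE M21 draws it. TGACATCA, a variant known as an AP-1 response element of the Jun promoter and put in the search for that reason, was in 2.93% of windows and in Jun at positions -45 to -38 from the start. The CArG box bound by SRF, in 1.47% of windows, was in none of the 7 members searched. GCGNGGGCG, the EGR site, in 4.70%, was in Fosl2. Elements more than 250 bases before the start were not searched for. Jund had no match, but its RefSeq start lies 1210 bases upstream of the first base of the gene in GENCODE M21, so the window does not adjoin the gene as drawn there. Fosl1, Egr1 and Ier2 were not searched, and windows on chromosome 18, where Egr1 lies, were left out for the members. A match describes letters only and says nothing about binding in these organoids.

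Junb showed the largest rise of the 8 members tested. Its level was 56.5, 50.2, 44.1 and 53.3 CPM in control replicates 1 to 4 and 124, 125, 125 and 99.96 CPM in RANKL replicates 1 to 4. Every RANKL library stood above every control, and RANKL replicate 4 was the lowest of its group. The log2 fold change was 1.21 with an SE of 0.12, a 2.33-fold ratio of the group means (edgeR adjusted p = 5.65e-09). Among all tested genes, 96.8% had a log2 fold change at or under that of Junb. Its call held under each of 16 alternative fits, between 1.01 and 1.295 on the log2 scale.

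Jun rose less. Control replicates gave 95.1, 83.2, 94.5 and 75.7 CPM and RANKL replicates 118, 120, 110 and 120 CPM. The groups did not overlap, and the RANKL libraries lay closer together, with an SD of 5.14 against 9.40 CPM. The log2 fold change was 0.39 with an SE of 0.11 (edgeR adjusted p = 0.010), and with all libraries thinned to the shallowest total the adjusted p was 0.0527.

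Jund fell. Its level was 205, 178, 274 and 184 CPM in control and 153, 171, 174 and 174 CPM in RANKL libraries. All RANKL libraries lay below all controls, but the nearest libraries were only 3.72 CPM apart, and control replicate 3 stood far above the rest of its group. The log2 fold change was -0.33 with an SE of 0.12 (edgeR adjusted p = 0.0421). Without control replicate 3 it was -0.17 (edgeR adjusted p = 0.252), and the call was also lost without any 1 of the 4 RANKL libraries, with edgeR adjusted p between 0.0744 and 0.109. DESeq2's Wald test gave an adjusted p of 0.081 and limma-voom 0.0671, so the fall of Jund is a call at the edge of the threshold.

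Within a library, a ratio of paralogs does not depend on scaling or depth of that library beyond counting error. The log2 ratio of Junb to Jund counts was -1.86, -1.82, -2.63 and -1.77 in control and -0.30, -0.45, -0.48 and -0.80 in RANKL libraries, a difference of 1.51. Jun to Jund moved by 0.73 and Jun to Junb by -0.78 on the same scale. In each of these 3 ratios the groups did not overlap, at an exact two-sided permutation p of 0.0286, the smallest that 4 against 4 allows. The 3 ratios are made from the counts of the same 3 genes, and any 2 of them fix the other. They are thus not independent of each other or of the levels of these genes given above. Adjusted over the 6 ratios tested, the exact permutation p was 0.0571 for each of the 3, which is the smallest value that 3 ratios at that minimum can reach, so none passed the threshold after adjustment.

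Put as shares of the summed Jun family counts, Jund made up 59.9% ± 4.35 (SD, n = 4) in control and 41.7% ± 2.29 in RANKL libraries. Junb made up 14.9% ± 2.87 and 29.4% ± 2.73, and Jun stood at 25.1% ± 1.89 and 29.0% ± 1.61. Junb took between 10.7% and 17.0% of the family in controls and between 25.4% and 31.4% with RANKL. The summed level of the family was 348 ± 47.5 CPM in control and 404 ± 10.95 CPM in RANKL libraries, and these overlapped (exact two-sided permutation p = 0.114). The shares rest on 182 to 2799 family counts per library.

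**Figure D2:**
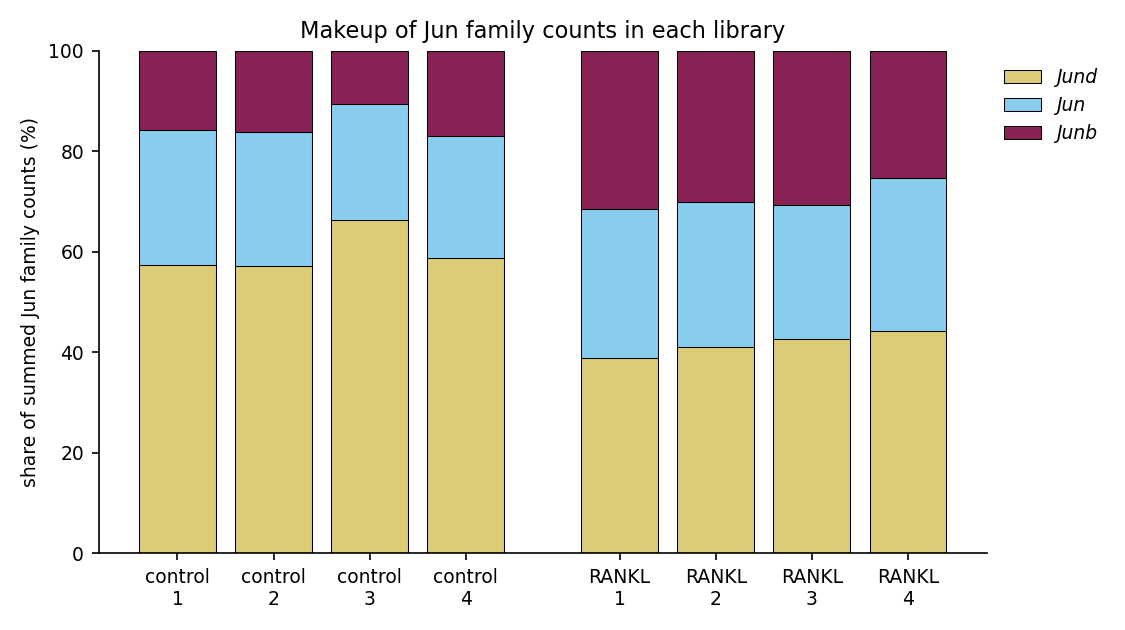
Share of Jund, Jun and Junb in the summed Jun family counts of each library, in percent, for 4 control and 4 RANKL libraries. The Junb part at the top of each bar is at most 17.0% in controls and at least 25.4% in RANKL libraries.

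The Fos family supplies partners that dimerise only with other families. FOS is the classical immediate early product, while FOSL1 (FRA-1) and FOSL2 (FRA-2) lack its strong activation domain. Almost all Fos family counts came from Fosl2, 93.3% ± 1.25 (SD, n = 4) in control and 94.6% ± 2.94 in RANKL libraries. Fosl2 lies on chromosome 5 from 32135801 to 32157842, Fos on chromosome 12 from 85473890 to 85477273 and Fosl1 on chromosome 19 from 5447547 to 5455946, all on the plus strand of GRCm38.

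Fosl2 rose with RANKL. Its level was 103.4, 120, 98.8 and 129 CPM in control and 121, 170, 163 and 165 CPM in RANKL libraries. RANKL replicates 2 to 4 stood above every control, while RANKL replicate 1, the shallowest of its group, lay within the control range. On the log2 scale the rise was 0.51 with an SE of 0.12 (edgeR adjusted p = 0.00126), and the exact two-sided permutation p on CPM was 0.0571. With all libraries thinned to the shallowest total it was 0.37 (edgeR adjusted p = 0.0872).

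Fos was low in both groups. It had 50, 24, 22 and 6 counts in control and 7, 11, 13 and 9 counts in RANKL libraries, or 6.37, 6.44, 5.58 and 10.3 CPM against 11.3, 7.57, 6.78 and 4.94 CPM. The groups overlapped, and the highest values of each group came from its shallowest library. The log2 fold change was 0.12 with an SE of 0.31 (edgeR adjusted p = 0.811). Its 95% interval of -0.51 to 0.75 includes rises of the size seen for Jun and Fosl2, so a change of that size was not detectable at this depth.

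Fosl1 had 2, 4, 4 and 1 counts in control and 1, 1, 1 and 0 counts in RANKL libraries, and was under the filter on low counts. Its summed counts of 11 and 3 gave a ratio of RANKL to control of 0.756, with an exact 95% interval of 0.135 to 2.86 that covers counting error only. No difference was detectable. The summed level of the Fos family was 121 ± 16.4 CPM in control and 163 ± 19.7 CPM in RANKL libraries, which follows Fosl2 (exact two-sided permutation p = 0.0571). None of the 3 Fos family ratios separated the groups, with exact permutation p of 0.343 for Fos to Fosl2, 0.457 for Fosl1 to Fosl2 and 0.6 for Fos to Fosl1.

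Atf3 codes for a stress-induced member of the ATF and CREB family that pairs with Jun proteins and often represses. The gene lies on chromosome 1 from 191170296 to 191218039 on the minus strand. It had 34, 24, 17 and 4 counts in control and 0, 3, 3 and 3 counts in RANKL libraries, which was too few for the main test. In CPM that was 4.33, 6.44, 4.31 and 6.88 against 0, 2.07, 1.57 and 1.65, so every RANKL library lay below every control (exact two-sided permutation p = 0.0286, the smallest possible). The ratio of summed counts, RANKL over control, was 0.316 with an exact 95% interval of 0.139 to 0.63, from counting error alone. RANKL replicate 1, at a count of 0, allows up to 3 counts or 4.89 CPM of its total, which is above the 2 lowest controls. Without the filter on low counts, edgeR gave a log2 fold change of -1.73 with an SE of 0.51 and an adjusted p of 0.0101 over 23836 genes.

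Egr1 codes for a zinc finger factor that is driven by ERK through SRF and its cofactors, and lies on chromosome 18 from 34859823 to 34864984 on the plus strand. Its level was 36.3, 26.3, 38.5 and 41.3 CPM in control and 29.1, 24.1, 26.6 and 36.3 CPM in RANKL libraries. The groups overlapped, with a log2 fold change of -0.25 and an SE of 0.18 (edgeR adjusted p = 0.331). The 95% interval ran from -0.61 to 0.11.

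Ier2 codes for a small nuclear protein made in the early response to growth factors, from a gene of 1 exon on chromosome 8 from 84661331 to 84662852 on the minus strand. Control libraries gave 40.2, 39.7, 32.7 and 37.8 CPM and RANKL libraries 64.6, 31.0, 30.3 and 47.8 CPM. RANKL replicates 1 and 4 lay above all controls and replicates 2 and 3 below them all, so the spread with RANKL was wide, an SD of 16.3 against 3.44 CPM. The log2 fold change was 0.11 with an SE of 0.18 (edgeR adjusted p = 0.705) and a 95% interval of -0.26 to 0.48.

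Ier3, also called IEX-1, codes for a protein of the early stress response that is known to affect ERK signalling and cell survival, and it is a known NF-κB target. It lies on chromosome 17 from 35821684 to 35822923 on the plus strand, with exons of Flot1 close to its 3′ end on the same strand. Matches to the kappa B site, the DNA element of NF-κB, were found in 3.90% of all promoter windows and in those of Ier3, Fosl2 and Fos. They are shown with 25 bases on either side for Ier3, which rose (chr17:35821596-35821655, plus strand), and Fos, which did not pass the test (chr12:85473651-85473710, plus strand), on GRCm38.p6. Capitals mark the match, at positions -92 to -83 in Ier3 and -214 to -205 in Fos.
Ier3: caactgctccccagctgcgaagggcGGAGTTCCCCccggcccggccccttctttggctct
Fos: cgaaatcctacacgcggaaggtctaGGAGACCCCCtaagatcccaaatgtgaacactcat

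The matches in Fosl2 were GGGAGTCCCC at positions -182 to -173 and GGAGTCCCCC, shifted by 1 base, in a window whose start lies 671 bases inside the gene as GENCODE M21 draws it. Of the 4 members that rose, Ier3 and Fosl2 thus held a match and Junb and Jun did not. The level of Ier3 was 42.0, 58.8, 56.3 and 49.9 CPM in control and 88.8, 80.5, 94.4 and 83.5 CPM in RANKL libraries. The groups did not overlap, and the gap between the nearest libraries was wider than the range within either group. Ier3 changed by 0.75 on the log2 scale with an SE of 0.13 (edgeR adjusted p = 6.05e-05). The call held in all 16 alternative fits, between 0.62 and 0.87 on the log2 scale.

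**Figure D3:**
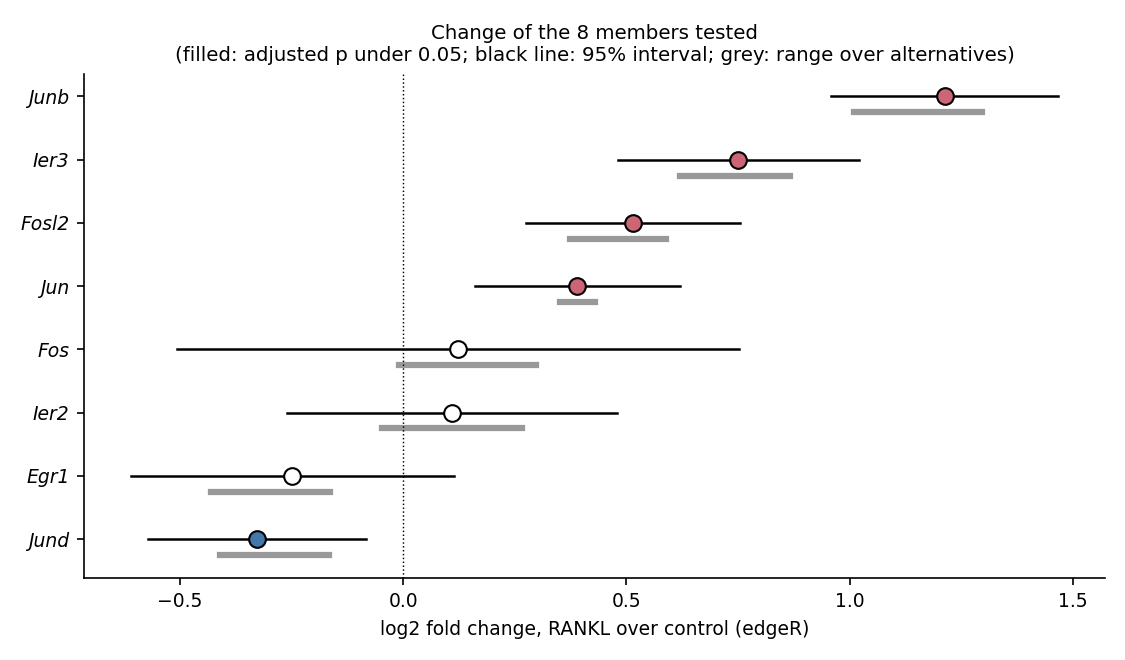
Log2 fold change of RANKL over control for the 8 genes tested, with the 95% interval of the edgeR fit as a black line, a filled point where the adjusted p was under 0.05 and the range over the alternative fits as a grey bar. Junb at 1.21 and Ier3 at 0.75 lay highest, the intervals of Fos, Ier2 and Egr1 crossed 0, and the whole interval of Jund lay below it.

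Of 12 other AP-1 family genes, 7 were tested, 1 rose and 0 fell by the edgeR test, with a median log2 fold change of -0.23. Over all 9971 genes tested, 13.6% were called higher and 12.4% lower. Like the members, this list and those below were chosen with earlier results of these data known. The number that fell was also 0 at an unadjusted p under 0.05 and by DESeq2 and limma-voom. The gene that rose was Mafg, a small MAF protein that pairs with NRF and BACH factors. Its group means were 140 and 209 CPM and its change 0.55 on the log2 scale with an SE of 0.11 (edgeR adjusted p = 0.000417), and its exons overlap those of Sirt7 on the same strand. Fosb had 7 counts in all control and 2 in all RANKL libraries, and Batf3 had none, so neither could be tested.

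Of 34 other immediate early genes, 19 were tested, 6 rose and 4 fell, with a median log2 fold change of 0.14. Among all tested genes 13.6% rose and 12.4% fell by the same rule. Sik1, a salt-inducible kinase that is itself induced by cAMP, rose most, from 1.66, 1.61, 2.03 and 5.16 CPM in control to 22.6, 8.95, 11.5 and 14.8 CPM in RANKL libraries. That was a log2 fold change of 2.78 with an SE of 0.35 (edgeR adjusted p = 2.48e-07). Ier5, an immediate early gene linked to heat shock factor activity, rose by 1.55 on the log2 scale, at group means of 293 CPM in control and 858 CPM in RANKL libraries. Trib1, a pseudokinase that guides COP1 to its substrates, rose by 1.34, at means of 155 and 387 CPM. Mcl1, an anti-apoptotic BCL2 family gene, rose by 0.69 and Btg1, an antiproliferative gene, by 0.57 on the log2 scale.

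The 4 immediate early genes that fell include 2 of the same RNA-binding family, Zfp36l2 with a log2 fold change of -1.02 and Zfp36 with -0.51, whose products speed the decay of AU-rich mRNAs. Zfp36l1 of that family rose by 0.47, and is named after its values were seen. Myc, a driver of growth, had a log2 fold change of -0.91 (edgeR adjusted p = 0.0292), at a mean of 10.5 CPM in control and 5.15 CPM in RANKL libraries. Klf4, a factor of differentiated epithelium, had -0.51 on the same scale. The call of Myc was lost without control replicate 1 or RANKL replicate 2, 3 or 4, with edgeR adjusted p between 0.0592 and 0.117, and that of Btg1 without control replicate 2 or RANKL replicate 2, at 0.0524 and 0.0591. Of the genes under the filter, Egr2, Egr3, Nr4a1 and Nr4a3 had at most 4 counts in all control libraries together and 0 in all RANKL libraries, and Egr4 and Ptgs2 had 0 throughout. Csrnp1 with 27 counts in control and 32 in RANKL libraries and Arc with 3 and 14 were under the filter too, and were picked after their values were seen because every RANKL library lay above every control, at 5.80 against 1.73 CPM and 2.38 against 0.0955 CPM in the means. For Arc, control replicate 4 had 0 counts, which allows up to 3 counts or 5.14 CPM of its total. That is above the highest RANKL value of 4.13 CPM, so the separation of Arc is not secure.

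Of 23 upstream regulators, which are kinases and promoter-bound factors that act on these genes or their products, 20 were tested, 3 rose and 1 fell by the edgeR test. The shares among all tested genes were 13.6% higher and 12.4% lower. Creb1 rose by 0.35 and Mapk3 (ERK1) by 0.29 on the log2 scale, and Rps6ka1, an ERK-driven kinase, had a log2 fold change of -0.35. The call of Mapk3 was lost without control replicate 1 or 4 or RANKL replicate 1, 2 or 3, that of Creb1 without RANKL replicate 4, and that of Rps6ka1 without control replicate 2 or RANKL replicate 2 or 4. The edgeR adjusted p was then 0.0606 to 0.194 for Mapk3, 0.0861 for Creb1 and 0.0559 to 0.0699 for Rps6ka1. The other 16 did not pass the test. Among them, named after their values were seen, the JNK genes Mapk8 and Mapk9 had log2 fold changes of 0.26 and -0.0033 and the p38 gene Mapk14 had -0.04. The median of the 20 was 0.10, and Srf had only 17 counts in all control and 5 in all RANKL libraries. Transcript levels of kinases say nothing about their activity.

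Of 26 genes listed as AP-1 targets in other cells, 12 were tested, 4 rose and 2 fell, with a median log2 fold change of 0.19. Beside this, 13.6% of all tested genes rose and 12.4% fell. Cd44, a hyaluronan receptor, rose by 1.61 on the log2 scale, at means of 40.2 CPM in control and 124 CPM in RANKL libraries (edgeR adjusted p = 5.16e-12). The study had itself reported that RANK stimulation induced Cd44. Mmp15, a membrane-bound metalloproteinase, rose by 1.25, at means of 38.8 and 94.3 CPM. Lamb3, a laminin chain gene, rose by 1.13, and its libraries did not overlap between the groups. Hbegf, an EGF receptor ligand, had a log2 fold change of -0.92 and Krt18, a keratin of simple epithelium, -0.70. The secreted metalloproteinases Mmp3, Mmp9, Mmp10 and Mmp13 and the gene Plau, all used as AP-1 readouts elsewhere, had 0 counts in every library.

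Genes of the heat shock families, only some of which can move with handling of the cultures, were set beside these results. Of 13 listed, 10 were tested, 3 rose and 2 fell, with a median of 0.09, against 13.6% higher and 12.4% lower among all tested genes. Dnaja1 rose by 0.45, Hsph1 by 0.39 and Hspa5 by 0.26, and Hspa8 and Hsp90ab1 had log2 fold changes of -0.33 and -0.26. None of these 5 calls held without RANKL replicate 4, with edgeR adjusted p between 0.0523 and 0.111. Hsph1, Hspa5 and Hsp90ab1 also lost theirs without RANKL replicate 2, Hspa5 without control replicate 3 or RANKL replicate 1 or 3, and Hsp90ab1 without control replicate 4 or RANKL replicate 1 or 3, at 0.0505 to 0.109. The heat-inducible genes Hspa1a and Hspa1b were near the floor, with 21 and 11 counts in all control and 10 and 6 in all RANKL libraries. Their part in the level of the members was not tested.

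**Figure D4:**
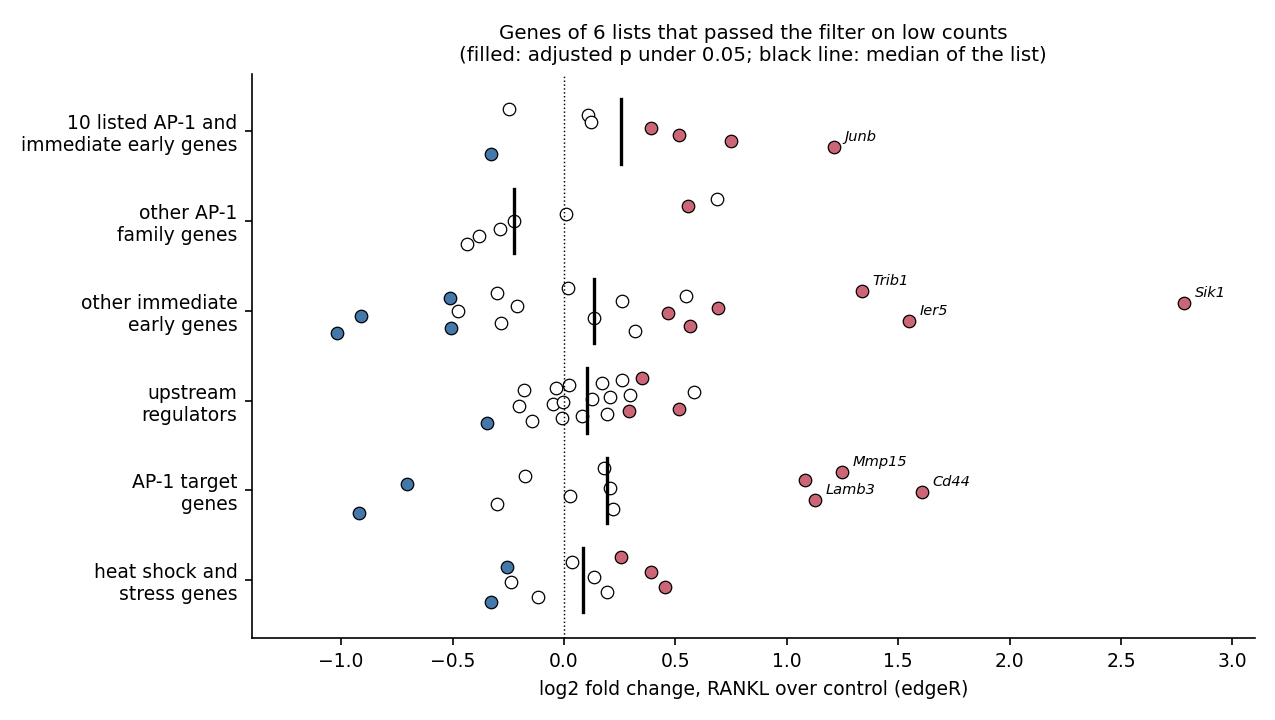
Log2 fold change of RANKL over control for each gene that passed the filter on low counts in 6 lists, with filled points for an edgeR adjusted p under 0.05, red for higher and blue for lower, and the median of each list as a black line. The list medians lay between -0.23 and 0.26, and Sik1 at 2.78 lay farthest from 0.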

How the data were processed

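Gene expression was measured in 8 libraries, 4 control and 4 RANKL, grouped and numbered by the sample titles. The authors made them with the QuantSeq 3′ forward kit, trimmed the reads, removed abundant sequences with bowtie2, mapped what was left to the GRCm38 genome using STAR, and counted reads per Ensembl gene by strand using featureCounts. The deposited values are these raw counts, with no normalization. Molecular identifiers are not mentioned, so intervals and floors cover counting error only.

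No library pair within a group agreed within counting noise (chi-square over degrees of freedom at least 1.25), so none were merged. Counts were tested with edgeR 4.0.16 in R 4.3.3 (TMM factors, its filter on low counts, quasi-likelihood test, Benjamini-Hochberg adjustment over 9971 genes, threshold 0.05). An SE is the size of a log2 fold change divided by the square root of F. Exact two-sided permutation tests on CPM and on log2 ratios of paralogs, with 0.5 counts added to each gene, used all 70 assignments. Alternatives were other scalings, DESeq2 1.42.0, limma-voom 3.58.1, other filters, a replicate block, leaving out each library in turn, thinning to the shallowest total and a threshold of 0.01. On simulated data of this design, edgeR recovered 98 of 100 genes changed 2-fold and 100 of 100 changed 4-fold, with 6 false calls among 10021 genes. The genes changed there were not drawn from those of lowest level, and changes under 2-fold were not simulated. Recovery of smaller changes, such as those of Jun, Fosl2, Ier3 and Jund, was thus not measured. Symbols of 54409 genes and coordinates come from reference tables and GENCODE M21, and promoter windows from RefSeq on GRCm38.p6. Python 3.11.15 and pandas 2.3.3 read the tables.

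The members, lists and motifs were chosen with earlier results of these data known. Named are all members, and in each list, markers apart, up to 5 called genes per direction, taken by size of change among those averaging 2 CPM or more. List genes under the filter are named as such, and some genes that the counts include are not reported by name here.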

Additional observations from a re-analysis of the deposited data

Results flagged for a closer look

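In groups of 4 libraries, a value was picked out where its gap to the nearest library, divided by the range of the group, was above Dixon's 95% critical value for 4 samples. Of 82 groups tested over members, named list genes and paralog ratios, 8 had such a value, and chance gives about 1 in 20, or 4.1 of 82.

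Among the members, RANKL replicate 4 had 99.96 CPM of Junb against 124 CPM in the next library, RANKL replicate 1 had 121.1 CPM of Fosl2 against 163 CPM, and RANKL replicate 1 had 153.4 CPM of Jund against 171 CPM. The low value of Fosl2 is what makes its groups overlap.

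Control replicate 3 had a log2 ratio of Junb to Jund of -2.63 against -1.86 in the next control, and control replicate 1 had a log2 ratio of Fos to Fosl1 of 4.336 against 2.45, the latter from 2 counts of Fosl1. Among the list genes, control replicate 4, the shallowest library, had 5.159 CPM of Sik1 against 2.03 CPM and 32.67 CPM of Mmp15 against 40.4 CPM, and control replicate 2 had 24.96 CPM of Btg1 against 32.7 CPM.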

How the results depend on the processing

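Junb, Ier3, Jun and Fosl2 kept their direction in all alternatives, and Junb and Ier3 also their calls. Thinned to the shallowest total, 2 members were called higher in place of 4, with adjusted p of 0.0872 for Fosl2 and 0.0527 for Jun. The call of Jund gave way in 9 of 16 alternative fits: 0 members were called lower with library totals alone, DESeq2, limma-voom, at least 10 counts in every library or a threshold of 0.01, and 2 with no filter on low counts, Jund and Atf3. Leaving out a library gave 4 members higher each time and 0 to 1 lower. Leaving out a library, the log2 fold change of Fos ran from -0.01048 to 0.30 and that of Ier2 from -0.04715 to 0.26, both below 0 only without RANKL replicate 1 and past no threshold. For Atf3, the log2 ratio of mean CPM was -2.06, and it ran from -2.36 to -1.01 over 11 alternatives. Leaving out a library alone gave -2.36 to -1.64. For Fosl1 the same ratio was -0.52, and it ran from -1.61 to -0.11.

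Over all genes, thinning gave 765 higher and 657 lower in place of 1355 and 1232, and the threshold of 0.01 left 707 lower. Leaving out a library gave 1039 to 1367 higher and 814 to 1234 lower, the lowest without RANKL replicate 4. With no filter the median gene stood at -0.11 on the log2 scale, in place of 0.00017.

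For upstream regulators, no filter or the threshold of 0.01 left 1 higher, thinning or the threshold of 0.01 left 0 lower, and leaving out a library gave 2 to 3 higher and 0 to 1 lower. At least 10 counts in every library left 1 AP-1 target lower. For heat shock genes, no filter or the threshold of 0.01 left 0 higher. Library totals, no filter, at least 10 counts or thinning left 1 lower, the threshold of 0.01 left 0, and leaving out a library gave 0 to 3 higher and 0 to 2 lower. Other counts stayed within 1.5 times of the main ones. Where no construction shows it, the cause was not tested.

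Same-numbered control and RANKL libraries had correlations of their deviations between -0.034 and 0.104, the highest in replicate 3. Libraries of unlike number had correlations between -0.138 and 0.0877. Correlations this small show no strong shared deviation, but they cannot exclude that the numbers pair the samples. With the replicate block, 1362 genes were higher and 1248 lower, and 4 members were higher and 1 lower, with no call of a member changed. Exchanged within pairs, the 3 Jun family ratios reached an exact sign-flip p of 0.125, the smallest that 4 pairs allow.

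Depth limits Fos, Fosl1 and Atf3 most: in control replicate 4 and RANKL replicate 1, 1 count is worth 1.71 and 1.63 CPM, and Fos rests on 6 and 7 counts there.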
